A study of Mus musculus with 29 samples.

Results

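Type 1 classical dendritic cells (cDC1) are the dendritic cells that take up dead cells and present their antigens to CD8 T cells, and they depend on the transcription factor IRF8. The regions described here are IRF8 binding sites of cDC1 whose chromatin already carried acetylation of histone H3 at lysine 27 (H3K27ac), found at active enhancers and promoters, in bone marrow stem and multipotent progenitors. The sites were chosen by these H3K27ac and IRF8 calls alone: a site was taken when its merged IRF8 peak was called in both cDC1 IRF8 libraries, did not overlap a merged peak called in both monocyte (Mo) IRF8 libraries, and overlapped an H3K27ac region in both wild-type (WT) cDC1 and both WT LSK libraries. This gave 2229 sites out of 33109 merged IRF8 sites of cDC1 and Mo, and out of 19296 cDC1 sites called in both libraries. Of the 5860 cDC1 sites outside reproducible Mo sites that were acetylated in both cDC1 libraries, 38.0% were also acetylated in both LSK libraries, and 3134 were acetylated in neither.

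All cells came from C57BL/6 mice, with 2 libraries per group, and H3K27ac was measured in 7 groups. LSK cells were sorted as Lin- Sca1+ CD117+ bone marrow cells, and lymphoid-primed multipotent progenitors (LMPP) as the CD135+ CD150- IL-7R- fraction of such cells. WT mice gave LSK, LMPP and splenic cDC1 sorted as CD11c high, MHC-II high and XCR1+. Mice that lack an Irf8 enhancer 56 kb beyond the gene start, called d56kb here, gave LMPP, granulocyte-monocyte progenitors (GMP, CD16/32+ CD115-) and monocyte-dendritic cell progenitors (MDP, CD115+). IRF8-deficient mice (IRF8KO) gave LMPP. IRF8 and CEBPA were mapped in WT cDC1 enriched on magnetic columns as CD8a+ splenic cells without flow sorting, and in WT bone marrow Mo enriched as CD115+ CD117- cells. Duplicates are biological by their labels, but no animal is named, so p-values measure the spread between these libraries, which may be technical. GMP and MDP of WT mice were not analysed here, so GMP and MDP are compared only with d56kb LMPP.

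IRF8 has little affinity for DNA on its own. It binds with ETS factors such as PU.1 at composite elements of the form GGAA followed after 2 bases by GAAA, with BATF and JUN factors next to TGANTCA sites, and with other IRF factors at repeats of GAAA such as GAAA followed after 2 bases by GAAA. Progenitors hold many enhancers and promoters that are acetylated before a lineage is chosen, while other enhancers gain the mark only in the mature cell.

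The deposited lists give the position of each called region and no strength, so 2 measures were used. A site counted as called in a library when a called H3K27ac region overlapped its IRF8 peak. Its coverage was the number of bases under called regions in the 5000 bases around the peak's midpoint. The authors' calling has a minimum width, and a window that holds 1 region of that width is described in words. Depth and calling differed between groups. Total tags ranged from 7.19 to 8.30 M in WT LSK, 5.42 to 10.9 M in WT cDC1, 1.83 to 3.67 M over the 6 d56kb libraries, 2.001 to 3.647 M in WT LMPP and 1.26 to 1.47 M in IRF8KO LMPP. Called regions covered 17.7 and 18.4 Mb in IRF8KO LMPP, 22.22 and 24.99 Mb in WT LMPP, and 30.7 to 41.3 Mb in the d56kb groups. The Mo IRF8 lists held 5135 and 6322 peaks against 25172 and 25919 in cDC1, so the absence of a Mo peak says less than the presence of a cDC1 peak. Regions at the start were called for 7 of 7 cDC1 markers in both WT cDC1 libraries, 8 of 8 stem and progenitor markers in both WT LSK libraries, and 0 of 4 markers of other spleen cells in WT cDC1. In IRF8KO LMPP 6 of 8 stem and progenitor markers were called, against 7 and 8 in WT LMPP. They were also called at 8 of 8 in both d56kb LMPP and both d56kb GMP libraries, at 4 of 8 in MDP and at 2 of 8 in cDC1. GMP markers were called at 5 of 5 in both GMP and both MDP libraries, so they did not separate these groups, while MDP markers were called at 4 of 4 in MDP and 2 of 4 in GMP. MDP markers were also called at 4 and 3 of 4 in WT cDC1, and at 3 of 4 in 1 d56kb LMPP and 1 IRF8KO LMPP library. Outside cDC1, the cDC1 markers were called at 3 of 7 in both WT LSK libraries and 4 of 7 in both MDP libraries. Only listed markers with an annotated start were counted.

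The sites sat close to gene starts more often than other cDC1 IRF8 sites. Of 2153 sites on chromosomes with annotated starts, 621 lay within 1000 bases of a start, which is 28.8% (Wilson 95% interval 26.97 to 30.79). The same share was 4.24% (3.58 to 5.02) among the sites acetylated in cDC1 but in neither LSK library, and 8.03% among all reproducible cDC1 sites. Among segments acetylated in both LSK and both cDC1 libraries that held no IRF8 peak at all, 65.5% were at a start. Of the segments that held a site, on the same chromosomes, 735 were at a start and 1276 were not. The median distance to the nearest start was 6886 bases, against 18999 for the sites without LSK acetylation. Within a gene's span lay 60.5% of the sites, and 535 lay between 20 and 100 kb from any start. These shares carry no test, since the choice of sites by LSK acetylation also favours promoters.

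A nearest protein-coding gene within 100000 bases was found for 2101 sites, in all 1643 genes out of 21887. Most of these genes, 1314, had a single site, 243 had 2 and 86 had 3 or more. Inpp5d, which encodes the lipid phosphatase SHIP1, had the most with 9, all within its first 40 kb. Sgms1, encoding sphingomyelin synthase, had 7. Etv6, an ETS family repressor, had 6, as did Gpr18, Mbnl1 and Zmiz1. Aim2, a sensor of cytosolic DNA, had 5, as did Arhgap25, Lcp1 and Pik3r1. Neighbouring sites often share 1 acetylated segment: 2083 segments carried the 2229 sites and 122 of them carried 2 or more, so sites of 1 gene are not independent.

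Gene lists show what kinds of genes stand next to the sites; the lists were chosen with earlier results of these data known. Over all protein-coding genes, 7.51% had at least 1 site. Among lineage transcription factors it was 20 of 49, among them Spi1 (PU.1), Runx1, Runx3, Ikzf1, Mef2c and Batf. Among interferon signalling and response genes it was 14 of 35, including all 4 listed chains of the interferon receptors (Ifnar1, Ifnar2, Ifngr1 and Ifngr2), and among MHC class I presentation genes 4 of 17, all at their own promoters: B2m, Psmb9, Psme1 and Psme2. Among cDC1 genes it was 7 of 23 (Id2, Irf8, Itgae, Plpp1, Ppt1, Rab7b and Wdfy4), whereas 18 of them had a site without LSK acetylation. Among genes of all dendritic cells it was 6 of 20 (Ccr7, Cd83, Cd86, Fgl2, Flt3 and H2-Aa), against 13 with a site without LSK acetylation. Toll-like receptor and NF-kB genes gave 8 of 28 and chromatin genes 7 of 24. Housekeeping genes gave 3 of 15, antigen processing genes 3 of 24, plasmacytoid DC genes 1 of 13, erythroid and megakaryocyte genes 1 of 14 and mast cell and basophil genes 1 of 10. Monocyte and macrophage genes gave 1 of 19, and neutrophil, B cell, T and NK cell and ribosome genes 0. These counts are descriptions, and genes with long surroundings collect more sites. Some listed genes are neighbours, such as Ifnar2, Ifnar1 and Ifngr2, or Psme1, Psme2 and Irf9, so they are not independent. The Ifnar1 site lay 23.8 kb from the nearest Ifnar1 start, and its peak 3529 bases from the nearest start of any gene.

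The promoters show which sequences lie under the peaks. RefSeq promoter windows of 300 bases (250 before and 50 after the start, GRCm38.p6) overlapped 297 sites, through 360 windows of 334 genes. Searched on both strands, GAAA followed after 2 bases by GAAA (the GAAA repeat) was in 8.06% of these windows (5.67 to 11.3), against 2.61% of 7470 windows acetylated in the same 4 libraries without an IRF8 peak and 3.44% of all 32851 windows. GGAA followed after 2 bases by GAAA (the composite element) was in 4.44% (16 windows, 2.75 to 7.10) against 1.74% and 2.71%. Either of these motifs, which can overlap, was in 11.7% (8.75 to 15.4) against 4.26% and 5.92%. TGANTCA was in 9.72% (7.07 to 13.2) against 3.55% and 7.81%, so its interval holds the share of all windows. The short ETS core GGAA was in 98.3% and thus in nearly any window of this length, with 96.0% over all. A match is a description of letters and does not show that a factor bound there.

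Promoters of 4 genes of the lists below are printed, as examples of the motifs under a peak, from RefSeq, 5′ to 3′ on the gene's strand, up to the start or to the last motif base after it. Capitals mark the GAAA repeat or the composite element on either strand, and in each the motif lay inside the cDC1 IRF8 peak. B2m encodes the light chain of MHC class I (chr2:122147437-122147686, plus strand) and carried GAAACTGAAA at bases 112 to 121. Psme1 encodes an activator subunit of the proteasome used in antigen processing (chr14:55578244-55578518, plus strand) and carried GAAAGCGAAA, read on the other strand, at bases 260 to 269, overlapping GGAAGGGAAA at bases 266 to 275. Isg15 encodes a ubiquitin-like protein induced by interferon (chr4:156200819-156201068, minus strand) and carried 3 overlapping copies between bases 173 and 194. Etv6 (chr6:134035450-134035716, plus strand) carried GAAACTGAAA on the other strand at bases 258 to 267.
B2m: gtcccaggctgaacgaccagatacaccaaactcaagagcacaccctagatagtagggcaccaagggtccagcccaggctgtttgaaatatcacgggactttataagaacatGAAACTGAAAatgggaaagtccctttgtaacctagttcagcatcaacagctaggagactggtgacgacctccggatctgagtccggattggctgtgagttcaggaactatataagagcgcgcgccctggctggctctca
Psme1: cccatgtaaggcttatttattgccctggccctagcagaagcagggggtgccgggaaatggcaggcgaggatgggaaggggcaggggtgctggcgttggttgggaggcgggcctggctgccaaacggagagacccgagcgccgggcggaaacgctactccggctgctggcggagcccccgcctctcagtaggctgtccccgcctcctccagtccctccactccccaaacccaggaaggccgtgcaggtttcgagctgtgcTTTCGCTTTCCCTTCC
Isg15: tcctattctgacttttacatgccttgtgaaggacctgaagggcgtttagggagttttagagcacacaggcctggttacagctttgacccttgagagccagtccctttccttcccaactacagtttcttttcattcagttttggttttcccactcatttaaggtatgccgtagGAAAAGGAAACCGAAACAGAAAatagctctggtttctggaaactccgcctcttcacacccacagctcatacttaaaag
Etv6: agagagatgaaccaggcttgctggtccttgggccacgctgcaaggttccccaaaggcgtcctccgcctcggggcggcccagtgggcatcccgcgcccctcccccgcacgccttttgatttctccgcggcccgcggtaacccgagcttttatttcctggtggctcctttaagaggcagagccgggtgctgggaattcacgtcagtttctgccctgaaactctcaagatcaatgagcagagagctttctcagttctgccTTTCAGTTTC

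Most sites were called in the WT and d56kb progenitors, and fewer in IRF8KO LMPP. The share of the 2229 sites with a called region was 61.1 and 59.8% in the 2 WT LMPP libraries, 83.8 and 82.1% in d56kb LMPP, 75.3 and 75.4% in d56kb GMP, 73.2 and 81.7% in d56kb MDP, and 42.4 and 43.7% in IRF8KO LMPP. The 2 IRF8KO libraries were below the other 8. The 3134 sites without LSK acetylation were called far less often: in 0.989 and 1.34% of cases in WT LMPP, 3.13 and 2.07% in d56kb LMPP, 7.91 and 7.82% in d56kb GMP, 10.2 and 13.9% in d56kb MDP, and 0.766% in both IRF8KO libraries. Over the 10 libraries that the choice of sites did not use, the mean difference was 63.0 percentage points (range 41.6 to 80.7). It is given as a description, since the choice of one set with and the other without LSK calls fixes its direction in related progenitors. In the sites without LSK acetylation the highest values were in d56kb MDP, whereas in the LSK-acetylated sites they were in d56kb LMPP; that difference in order was not tested.

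**Figure D1:**
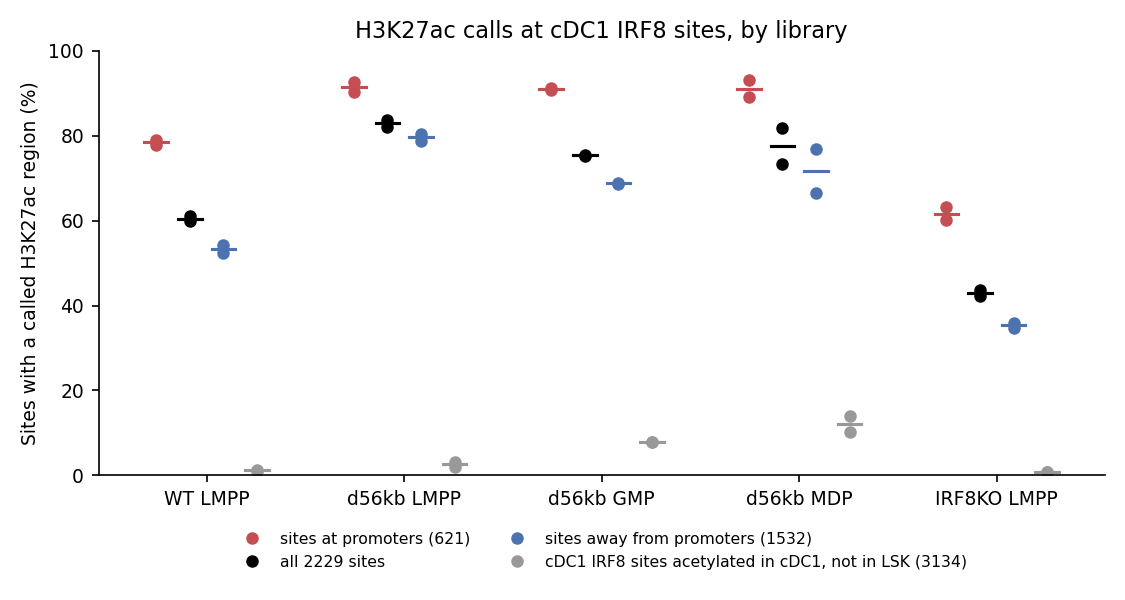
Share of sites with a called H3K27ac region (%) in each library outside LSK and cDC1, by group; points are libraries and bars the mean of 2. The sites at promoters were called most often in each group, the sites acetylated in cDC1 but not LSK reached at most 13.9%, and IRF8KO LMPP was lowest for all 4 sets.

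Promoters held the mark more widely than sites away from them. At the 621 promoter sites the share called was 77.8 and 79.1% in WT LMPP, 92.8 and 90.3% in d56kb LMPP, 91.3 and 90.8% in d56kb GMP, 89.1 and 93.1% in d56kb MDP and 60.2 and 63.1% in IRF8KO LMPP. At the 1532 sites away from promoters it was 54.2 and 52.5%, 80.5 and 78.7%, 68.7 and 68.9%, 66.5 and 77.0%, and 34.8 and 35.9% in the same order. Each promoter value was above the value away from promoters in its library. Calls in all 10 libraries were found at 547 sites (24.5%), made up of 44.0% of promoter sites and 16.6% of those away. None of the 10 libraries had a call at 47 sites (2.11%), and the median site was called in 7. Among the 3134 sites without LSK acetylation 2344 (74.8%) were called in none of the 10 libraries and 0 in 8 or more, against 1102 of the LSK-acetylated sites.

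**Figure D2:**
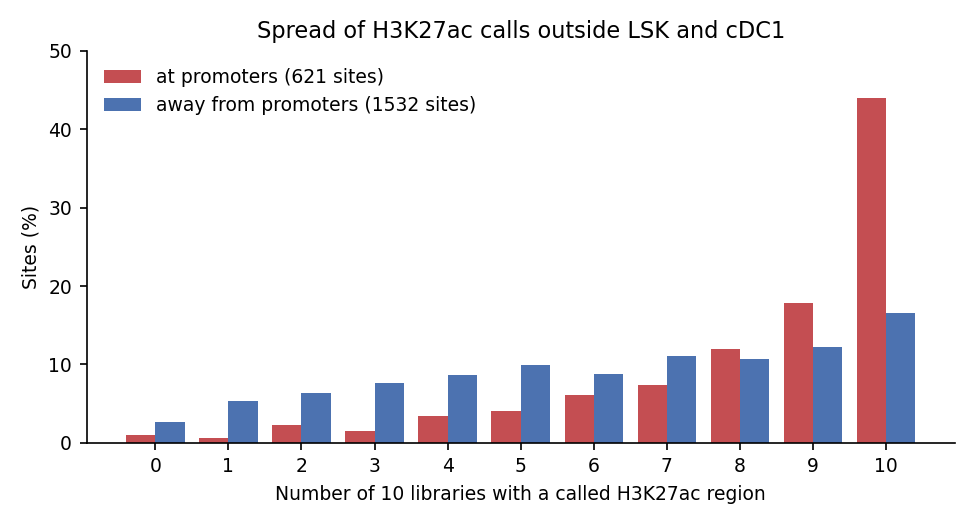
Share of sites (%) by the number of the 10 libraries outside LSK and cDC1 in which a called region overlapped the IRF8 peak, for 621 promoter sites and 1532 sites away from promoters. The bar at 10 libraries holds 44.0% of promoter sites and 16.6% of the others.

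Sites called in none of the 10 libraries still varied around the peak. A site inside Nsmce2, a gene with no annotated start here, lay 77.4 kb from the nearer end of the gene's span. It had all 5000 bases covered in both cDC1 libraries, 662 bases and 1 region of minimum width in LSK, and 0 in the 10 others. A Ppfibp2 site 11.3 kb from the start had 4468 and 4481 bases in cDC1, 1045 and 977 in LSK, and 0 in the 10 others. The Mbnl1 site 17.4 kb from the start was different, with 1157 and 2872 bases around it in WT LMPP and 4016 and 2777 in d56kb LMPP, although no region overlapped the peak itself. A missing call at the peak therefore does not mean that its surroundings were unmarked.

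Whether IRF8 sites differed from other shared acetylation depended on how a call was counted. Segments acetylated in both LSK and both cDC1 libraries without any IRF8 peak (7763) were represented by a window of the median peak width at their centre, and 77.2 and 74.7% of them were called in WT LMPP and 59.7 and 62.3% in IRF8KO LMPP. With promoters apart, the IRF8 sites away from promoters were called less often than such segments away from promoters. The difference was -6.31 percentage points (range -9.77 to -0.95, lower in 10 of 10 libraries), and at promoters -5.24 points (-7.72 to -3.09, lower in 10 of 10). A two-sided exact permutation test by sign flips gave p and adjusted p = 0.00195 for both, the smallest that 10 libraries can give. It flipped each library alone, although the 10 are duplicates of 5 groups, so its p-value treats duplicates as independent. The segment windows also lay at the centre of bases covered in all 4 libraries of the rule. A site's peak only had to overlap a region in each. When a call anywhere in the whole segment was counted instead, a setting added after the data were seen, the difference away from promoters was -0.744 points with 3 of 10 libraries positive, and at promoters 3.08 points with 7 of 10 positive. Over all segments together that difference was -4.98 points with 0 of 10 positive, and segments with a site were wider (median 1429 bases) than those without IRF8 (964).

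In LMPP without IRF8, fewer sites were called and coverage was lower at a subset. The share called was 43.0 ± 0.984% in IRF8KO against 60.5 ± 0.920% in WT LMPP (SD, n = 2), a difference of -17.5 percentage points with no overlap, and 2 against 2 libraries allow no exact permutation p below 0.33. Segments without an IRF8 peak differed by -14.9 points, and whether -17.5 and -14.9 differ was not tested. Called in both WT LMPP libraries and neither IRF8KO library were 165 sites, which is 7.40% of the sites and 15.1% of the 1090 called in both WT libraries, against a background of 1.94% of all reproducible cDC1 sites. Set against the sites called in WT LMPP, the background share was 20.2% over all reproducible cDC1 sites and 9.75% over segments without IRF8. The reverse pattern was seen at 13 sites, 0.583% against a background of 0.207%. These were 1.97% of the sites called in both IRF8KO libraries. That share was 3.81% over all reproducible cDC1 sites and 1.17% over segments without IRF8. Without IRF8KO replicate 1 or 2 the lost calls numbered 321 and 323, and without WT LMPP replicate 1 or 2 they numbered 312 and 321, because fewer libraries had to meet the rule; the gained calls rose to 69, 63, 27 and 36.

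The widest WT regions were the ones most often called in IRF8KO. Among sites called in both WT LMPP libraries, 32.8% of the 195 with up to 1000 covered bases were called in both IRF8KO libraries, 56.5% of the 464 with 1000 to 2000, 61.5% of the 283 with 2000 to 3000, 72.3% of the 119 with 3000 to 4000 and 86.2% of the 29 above that. The IRF8KO libraries also had the fewest tags of the 14 H3K27ac libraries and the shortest covered length, and 17.8 to 18.6% of their tags lay in regions against 15.0 to 23.7% in WT LMPP. The part of depth in the lower share was not tested.

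The test over all sites adjusted for covered length. Coverage was scaled to the mean total covered length, log2 transformed after adding 500 bases, and fitted with limma over 14 libraries and 19881 IRF8 sites with coverage in at least 2 libraries, with Benjamini-Hochberg adjustment. Each of the 2229 sites entered, because the rule itself requires coverage in 4 libraries. IRF8KO minus WT LMPP gave 125 sites lower and 15 higher at an adjusted p under 0.05, against a background of 2.78% lower and 0.493% higher over all fitted sites. That is 5.61% and 0.673% of the sites. The median log2 difference was -0.12, against 0 over all fitted sites. That background holds many sites with no coverage in LMPP. Among the 10859 sites with coverage in at least 6 libraries, 6.999% were lower and 0.838% higher, against 8.55% and 0.961% of the 2186 sites that remained, and the medians were -0.052 and -0.14. With the fit limited to the 4 libraries they were -0.14 over all and -0.15. Without scaling the median of the sites was -0.37, with 160 lower and 5 higher. These were 7.18% and 0.224%, against 2.69% and 0.166% of all fitted sites. Without IRF8KO replicate 1 or 2 the median of the sites was -0.089 and -0.099, against 0.0 over all fitted sites. With the fit limited to the 4 libraries of these groups no site passed. Of the 1787 sites fitted there, 259 had an unadjusted limma p under 0.05, against 1153 of all 7301 IRF8 sites fitted. The calls thus rest on a spread shared by all 14 libraries. This limit holds for each comparison below of MDP with GMP and of d56kb with WT LMPP as well.

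Among genes of interferon and antigen presentation, the lowest IRF8KO minus WT difference was near Trim25, a ubiquitin ligase of antiviral RNA sensing. The site 25.1 kb from its start (chr11:89024302-89024676) had 2290 and 2740 covered bases in WT LMPP, 0 in both IRF8KO libraries and 2943 and 1886 in d56kb LMPP, a log2 difference of -3.07 (SE 0.217, limma adjusted p = 0.000396) between IRF8KO and WT. The Trim25 promoter site had 1837 and 1721 bases in WT and 1039 and 1339 in IRF8KO and did not pass. The Psme1 promoter (chr14:55578343-55578645), whose motifs are printed above, had 933 and 768 bases in WT LMPP, 0 in both IRF8KO libraries and 1692 and 1989 in d56kb LMPP (difference -1.81, SE 0.208, adjusted p = 0.00265). A site 2.0 kb from the start of Ifngr2, a chain of the interferon gamma receptor, had 2153 and 1989 bases in WT and 756 and 842 in IRF8KO (difference -0.80, adjusted p = 0.0156). The other promoters of the class I list gave values without a call: B2m had 3683 and 2286 bases in WT against 2741 and 1 region of minimum width in IRF8KO, Psmb9 had 1655 and 1680 against 1087 and 1467, and Psme2 had 1151 and 2086 against 2163 and 1 region of minimum width. The Isg15 promoter site, printed above, had 1002 and 798 bases in WT and 636 and 0 in IRF8KO, and did not pass (difference -0.96, limma adjusted p = 0.637). Over all 2229 sites 5.61% were lower and 0.673% higher, and over all fitted sites 2.78% and 0.493%. In the list of 5 class I sites 1 was lower and 0 higher, and in that of 20 interferon sites 2 were lower and 1 higher. The exception was a site 23.8 kb from the start of Ifnar1, with 0 bases in both WT LMPP libraries, 992 and 1 region of minimum width in IRF8KO, and 2290 and 1607 in d56kb LMPP (IRF8KO difference 1.91, SE 0.288, adjusted p = 0.00911).

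Sites near 3 listed transcription factor genes were also lower in IRF8KO. Among 41 sites at lineage transcription factors, 5 were lower and 1 higher, against 5.61% and 0.673% of all 2229 sites and 2.78% and 0.493% of all fitted sites. Of 4 sites near Klf6, 3 were lower: the site 82.9 kb away had 2052 and 2221 bases in WT and 1 region of minimum width and 0 in IRF8KO (difference -2.08, adjusted p = 0.0280), while those 57.9 and 56.8 kb away, whose windows overlap, had 1140 and 1 region of minimum width in WT and 0 in IRF8KO (both -1.71). The fourth Klf6 site, 15.7 kb away, had 1119 and 1933 bases against 1513 and 789. An Elf1 site 17.8 kb from the start had 2739 and 2425 bases in WT LMPP against 654 and 462 in IRF8KO (difference -1.46, SE 0.196, adjusted p = 0.00537), and all 5000 bases were covered in both LSK and both d56kb LMPP libraries. Near Fli1, an ETS factor of stem cells, 4504 and 4367 bases were covered in WT against 1830 and 1318 in IRF8KO (difference -1.01, adjusted p = 0.0260). Of the sites with high coverage elsewhere, Spi1 gave 4406 and 2922 bases in WT and 1926 and 1798 in IRF8KO without passing the test. A site near Klf2, 31.2 kb from its start, was higher, with 0 in both WT libraries and 1 region of minimum width in each IRF8KO library (difference 1.55, adjusted p = 0.00371). Differences of this kind rest on 1 short region per library.

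The remaining sites with the lowest IRF8KO values stood near Cd82, a tetraspanin (3167 and 1899 bases in WT, 0 in both IRF8KO libraries, difference -3.05, adjusted p = 0.00106), Gm38457 (3091 and 2572 against 0 and 371, difference -2.59), the Inpp5d site 26.0 kb from its start (1131 and 2368 against 0 in both, difference -2.55, adjusted p = 0.0192) and Ndrg1 (1583 and 1678 against 0 in both, difference -2.54, adjusted p = 0.000753). The Gm38457 site lay within the span of Klf3. Of the other 8 Inpp5d sites none passed in this comparison. By the count of calls, the lost sites with the widest WT coverage were near Mcl1, a survival factor of blood cells, and Gpr146, Frmd8, Cyfip2, Evi2a, Cytip, Midn and Orai2. At these the peak itself lost its call while the surroundings kept some coverage: Mcl1 had 4118 and 4560 bases in WT LMPP and 2035 and 661 in IRF8KO, and Frmd8 3778 and 3823 against 2838 and 2104. Sites gained by the count were near Mta3, Snx29, Tmem150b, H3c6 and Trerf1. Trerf1 had 0 in both WT libraries and 1078 and 1 region of minimum width in IRF8KO (difference 1.95, adjusted p = 0.0233), whereas Mta3 had 2201 and 2426 bases against 2373 and 2492 and did not pass. Tmsb10, encoding a thymosin that binds actin, had 962 and 2104 bases in WT and 0 in both IRF8KO libraries (difference -2.39, adjusted p = 0.00158), and was named for another comparison.

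Deletion of the +56 kb enhancer was not followed by fewer calls at these sites in LMPP. The share called was 82.9 ± 1.24% in d56kb LMPP against 60.5% in WT LMPP (SD, n = 2), 22.4 percentage points higher, and segments without an IRF8 peak were 14.4 points higher. The d56kb LMPP libraries had 3.675 and 2.985 M tags and covered 38.1 and 35.03 Mb, against 2.001 and 3.647 M tags and 22.22 and 24.99 Mb in WT LMPP. Of the tags, 36.80 and 38.07% lay in regions in d56kb LMPP, against 23.74 and 15.03% in WT LMPP. The part of these gaps in covered length and tags in regions in the higher share called was not tested. Called in both d56kb and neither WT library were 222 sites (9.96%, background 2.95%), and the reverse held for 3 (0.135%, background 0.0985%). Of the sites called in both d56kb LMPP libraries, the gained ones were 13.3%. That share was 18.6% over all reproducible cDC1 sites and 7.2% over segments without IRF8. Of the sites called in both WT LMPP libraries, the lost ones were 0.275%, against 1.03% and 0.134% in the same order. Without WT LMPP replicate 1 or 2 the gained calls were 427 and 398, and without d56kb LMPP replicate 1 or 2 they were 328 and 357; the lost calls were 25, 22, 14 and 11 in the same order. After scaling, limma called 65 sites higher (2.92%) and 3 lower (0.135%), against a background of 1.85% higher and 0.151% lower over all fitted sites. The median log2 difference of the sites was 0.003. With coverage in at least 6 libraries, 2.47% of the sites were higher, against 2.09% of all fitted sites, and the medians were 0.0055 and 0.096. Without scaling, the median over all fitted sites was 0.12 and that of the 2229 sites 0.48, and the counts became 153 higher and 0 lower. These were 6.86% and 0.0%, against 3.21% and 0.07% of all fitted sites. Without regions of minimum width the counts were 139 higher (6.24%) and 33 lower (1.48%), against 4.115% and 0.81% of all fitted sites. The control samples of this comparison and of the IRF8KO comparison are the same 2 WT LMPP libraries.

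The higher sites had no called base in WT LMPP in most of the named cases. The site inside Zfp704, 30.9 kb from the nearer end of the gene's span, had 0 in both WT LMPP libraries and 2958 and 1940 bases in d56kb LMPP. It had 0 in d56kb GMP, d56kb MDP and IRF8KO LMPP (d56kb minus WT LMPP difference 2.48, SE 0.194, limma adjusted p = 0.000908). Shb, an adaptor protein, had 0 against 2414 and 2254 (2.44, adjusted p = 0.00218), Tmbim1 0 against 2316 and 1906 (2.32), Ptprj 0 and 173 against 3649 and 1920 (2.32), and Ldha, lactate dehydrogenase A, 0 against 1736 and 2194 (2.24). Each of these 5 sites had at least 1428 bases in both LSK libraries. Among list genes the sites near Ifnar1 (2.22), Irak2 (2.08), Fgl2 (1.80), Klf2 (1.77) and Runx1 (1.73) were higher; the Runx1 site had 0 in WT LMPP, GMP and IRF8KO, 1002 and 1457 bases in d56kb LMPP and 3358 and 3115 in LSK. The 3 lower sites were near Trim5 (1 region of minimum width in each WT library and 0 in d56kb), Bfsp2 (2140 and 1905 against 1510 and 1125, difference -0.998) and Nbeal2 (3306 and 3516 against 3568 and 3018, lower only after scaling, -0.61). The Trim5 difference of -1.31 became 0.00 when regions of minimum width were left out.

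**Figure D3:**
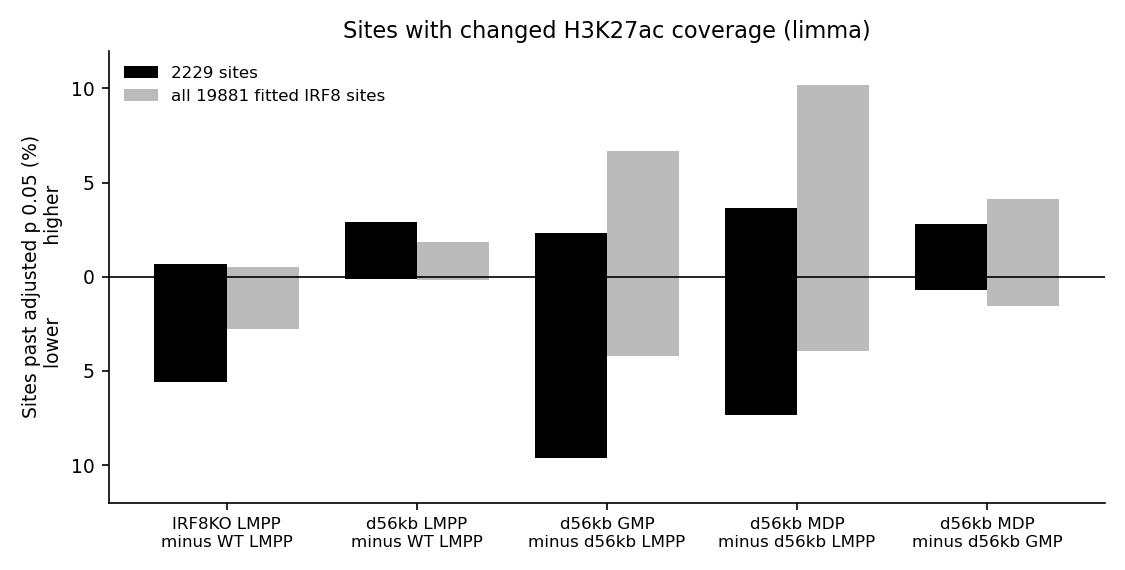
Share of sites (%) whose H3K27ac coverage passed an adjusted p of 0.05 in limma, higher above and lower below the line, in 5 comparisons, for the 2229 sites and for all 19881 fitted IRF8 sites. In the comparisons of d56kb GMP and MDP with LMPP the 2229 sites were more often lower (9.60 and 7.36%), whereas all fitted sites were more often higher (6.69 and 10.2%). With coverage required in at least 6 libraries, all fitted sites were higher in 7.70 and 10.5% and lower in 7.77 and 6.93%. The choice of sites by LSK calls favours sites already covered in LMPP, so this contrast is a description.

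From LMPP to GMP within d56kb mice, more sites lost coverage than gained it. Limma called 214 sites lower and 52 higher, against a background of 4.21% lower and 6.69% higher; this is 9.60% and 2.33% of the sites, and the median difference was -0.13. With coverage in at least 6 libraries the background was 7.77% lower and 7.70% higher, against 11.1% and 2.33% of the sites. The choice of sites by LSK calls favours sites already covered in LMPP: 82.9% were called in d56kb LMPP, against 19.98% of all reproducible cDC1 sites. Such sites have coverage to lose, and the filter does not match the sets, since the 4 libraries of the rule count toward the 6. The contrast with the background, here and for MDP, is therefore a description. Away from promoters 187 sites were lower (12.2%) and 36 higher (2.35%), and at promoters 20 (3.22%) and 10 (1.61%). From LMPP to MDP 164 were lower and 81 higher, against a background of 3.93% lower and 10.2% higher, and with coverage in at least 6 libraries 8.42% and 3.797% of the sites against 6.93% and 10.5%. Both comparisons share the d56kb LMPP libraries, so their values are given side by side and their overlap is not read as a result. With 1 library left out the calls ranged from 148 to 191 for GMP and from 138 to 189 for MDP. By the count of calls, 184 sites (8.3%) were called in both LMPP and neither GMP library, against a background of 2.39% of all reproducible cDC1 sites. For MDP there were 142 (6.4%, background 2.01%), and 79 (3.5%, background 1.26%) were called in none of the 4 libraries of GMP and MDP. These backgrounds hold many sites with no LMPP call to lose. Both d56kb LMPP libraries had a call at 1671 of the 2229 sites and at 3059 of all 19296 reproducible cDC1 sites. Of those 3059, 461 were lost in GMP, 387 in MDP and 243 in both. As a share of sites called in LMPP, each loss was less frequent at the 2229 sites than over all reproducible sites.

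Sites near H2-Aa, Itgae and Nr4a1 were among the lower ones, while of 7 sites at genes of all dendritic cells 1 was higher and 2 lower in GMP, and 1 higher and 1 lower in MDP. For the list counts here, 9.60% of all 2229 sites were lower and 2.33% higher in GMP, and 7.36% and 3.63% in MDP. Over all fitted sites the shares were 4.21%, 6.69%, 3.93% and 10.2% in the same order. Near H2-Aa, which encodes a chain of MHC class II, all 5000 bases were covered in both LSK and both cDC1 libraries, 5000 and 4496 in d56kb LMPP, 635 and 0 in GMP, and 0 in both MDP libraries (GMP difference -2.77, adjusted p = 0.00129; MDP difference -3.32, adjusted p = 0.000326). Itgae, encoding the integrin CD103 of cDC1, had 3225 and 3125 bases in LMPP, 1 region of minimum width in 1 GMP library and 0 in the other GMP library and in MDP (-2.36 and -2.81, adjusted p = 0.00176 and 0.000470). In cDC1 it had 2864 and 1801 bases, and in LSK 3175 and 3087. The 3 sites near Nr4a1, an orphan receptor induced by stimulation, were lower in GMP: the site 10.6 kb from the start was covered over all 5000 bases in LMPP, LSK and cDC1, over 1233 and 0 in GMP and 3135 and 2407 in MDP (GMP difference -2.55, adjusted p = 0.0289). Of the 14 sites at Toll-like receptor and NF-kB genes, 4 were lower in GMP and 0 higher: those near Tnfaip3 (89.8 kb), Nfkbiz (56.7 kb) and both near Traf1. Nfkbiz, an inhibitor of kappa B family member, had 1339 and 1692 bases in LMPP, 70 and 0 in GMP and 649 and 640 in MDP. Of 3 sites near Etv3, a repressor of the ETS family, all 3 were lower in GMP, and the 1 at 3.4 kb had 3188 and 3514 bases in LMPP and 0 in both GMP and both MDP libraries (both -2.88).

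The other sites with the lowest GMP or MDP differences were near Arhgef10 (4070 and 4046 bases in LMPP, 0 in GMP, 1002 and 1 region of minimum width in MDP, GMP difference -3.12), Dad1 (3597 and 3748, 0 in GMP, 1141 and 1 region of minimum width in MDP, -2.995), Nfatc2 (3366 and 3720, 0 in GMP and MDP, -2.95), Dph5 (3547 and 3390, 0 in GMP and MDP, -2.92) and Ctnnb1, which encodes beta-catenin (3234 and 3147, 0 in GMP and MDP, -2.82). These GMP differences had limma adjusted p-values from 1.14e-05 to 0.000171. Each of these 5 sites was still called in cDC1, as the rule demands, with up to 4000 bases at Arhgef10.

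Sites that gained coverage in GMP and MDP included sites near Etv6, Ikzf1 and Foxp1, which encode transcription factors. The Etv6 site 85.2 kb from the start had 1090 and 0 bases in d56kb LMPP, 4064 and 4988 in GMP, 4224 and 4405 in MDP and all 5000 in cDC1 (GMP difference 2.38, adjusted p = 0.00843; MDP difference 2.45, adjusted p = 0.00575). The Etv6 promoter, whose motif is printed above, was covered at 3663 to 4124 bases in LMPP, GMP and MDP alike. An Ikzf1 site 39997 bases from the start had 1 region of minimum width in each LMPP library, 2178 and 3267 bases in GMP and 1904 and 2931 in MDP (1.56 and 1.52). Foxp1, a forkhead factor of progenitors and B cells, had 1 region of minimum width in each LMPP library, 3862 and 4292 bases in GMP and 3298 and 3482 in MDP (2.08 and 1.96). Samsn1 and Trim33 had 0 in LMPP and 1598 to 2544 bases in all 4 GMP and MDP libraries (GMP differences 2.34 and 2.22). Of the sites named, Zfp516 had the highest difference in both comparisons (2.42 in GMP and 2.60 in MDP). Of the sites higher in MDP, Cd86, a costimulatory ligand of T cells, had 0 in d56kb LMPP and GMP, 675 and 1379 in MDP and 4490 and 3875 in cDC1 (MDP minus LMPP 1.53, adjusted p = 0.0269). Uvrag had 0 in LMPP, 1017 and 1509 in GMP, 1346 and 2675 in MDP and all 5000 in cDC1, and Tmem156 1 region of minimum width in each LMPP library and 4019 to 4423 bases in GMP and MDP.

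**Figure D4:**
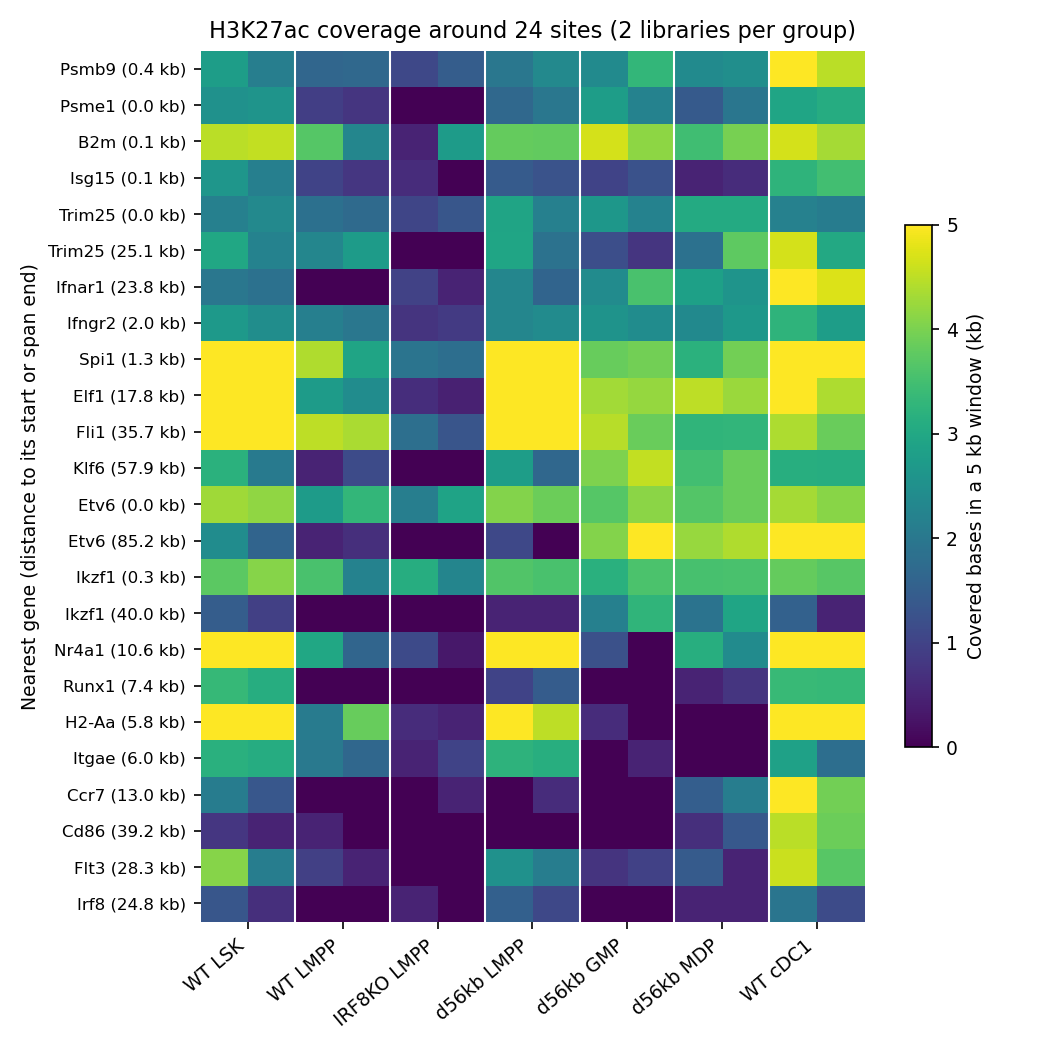
Covered bases (kb) in the 5 kb window around 24 sites in each of 14 H3K27ac libraries, 2 columns per group; each row is a site named by the nearest gene and the distance to its start or span end. The rows near Trim25 (25.1 kb) and Psme1 are dark in both IRF8KO LMPP libraries, and that near H2-Aa is dark in both d56kb MDP libraries and bright in LSK and cDC1.

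MDP and GMP differed at fewer of the sites. MDP minus GMP gave 62 sites higher (2.78%) and 16 lower (0.718%), against a background of 4.14% higher and 1.58% lower, and a median difference of 0.086. With coverage in at least 6 libraries, 1.46% of the sites were higher and 0.366% lower, against 1.27% and 0.46% of all fitted sites. Without MDP replicate 1 or 2 the median difference of the sites was 0.0047 and 0.145, against 0.0 over all fitted sites. Without GMP replicate 1 or 2 it was 0.097 and 0.069, again against 0.0. Arl5c had 0 in both GMP libraries, 3175 and 2890 bases in MDP and 1696 and 1565 in d56kb LMPP (2.79, adjusted p = 6.21e-05). Tmsb10 had 0 in GMP and 2135 and 3565 in MDP (2.67), and Zc3h12d 0 against 2663 and 2374 (2.57). The promoter site of Dock10 had 0 in GMP and 2039 and 2993 bases in MDP (2.54, adjusted p = 2.87e-05) and was the only one of these 4 at its gene's own start. The Ccr7 site, 13046 bases from the span of this chemokine receptor of migrating dendritic cells, had 0 in GMP, 1498 and 2127 bases in MDP and 5000 and 3937 in cDC1 (2.16, adjusted p = 0.0400). The Nr4a1 site 14010 bases from the start had 732 and 0 in GMP and 3067 and 2860 in MDP (2.16). Lower in MDP were the sites near Capn3 (2772 and 3183 in GMP, 0 in MDP, -2.65), Gm34296 (-2.48), Ssbp2 (2006 and 1711 against 0, -2.10), Actn1 (-1.93) and Pik3r1 (1046 and 1352 against 0, -1.64).

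Irf8 itself had 1 of the sites. It lies at chr8:120763230-120763674, 27.1 kb after the first annotated start of Irf8 and 24.8 kb from another start of the gene. It had 1345 and 682 covered bases in LSK, 0 in both WT LMPP libraries, 1527 and 1081 in d56kb LMPP, 0 in both GMP libraries, 1 region of minimum width in each MDP library and in 1 IRF8KO library, and 1950 and 1136 in cDC1. GMP was lower than LMPP (-1.79, SE 0.426, adjusted p = 0.0298), whereas d56kb minus WT LMPP was 1.79 with an adjusted p of 0.0929. The IRF8 sites 32.4 and 41.0 kb after the start, near known enhancers of Irf8, had 0 bases in LSK, WT LMPP and d56kb LMPP and 3470 to 5000 in cDC1. An IRF8 peak at 56.4 kb, called in 1 cDC1 library, had 758 and 1805 bases in LSK, 809 and 642 in WT LMPP and 2343 and 954 in cDC1. It had 0 in all 6 d56kb libraries, which carry the deletion, and also 0 in both IRF8KO LMPP libraries. It was not among the 2229 sites, because both IRF8 libraries were required.

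**Figure D5:**
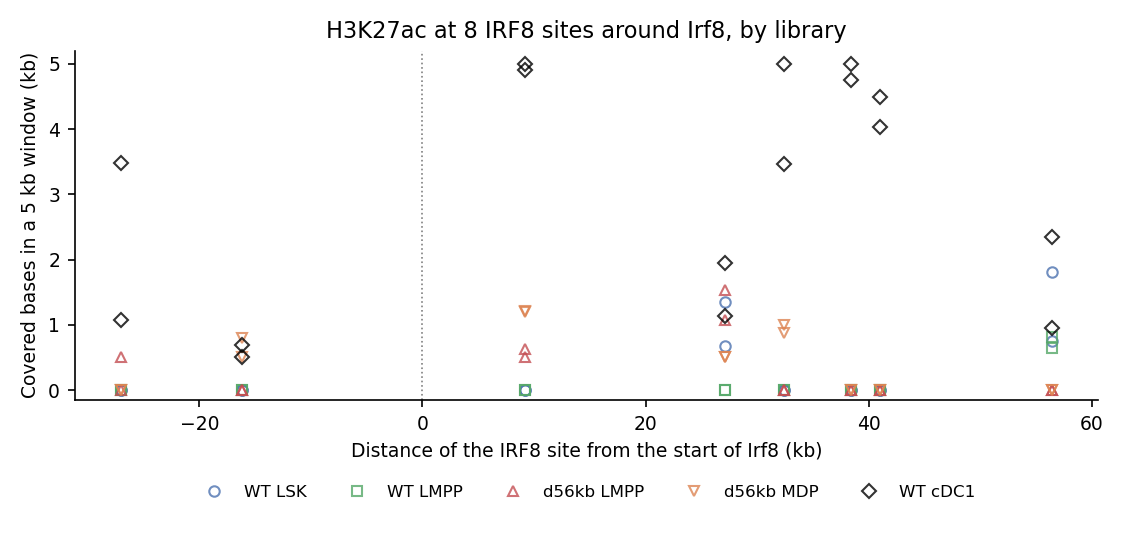
Covered bases (kb) in the 5 kb window of 8 merged IRF8 sites by their distance (kb) from the first start of Irf8; each symbol is a library of WT LSK, WT LMPP, d56kb LMPP, d56kb MDP or WT cDC1. The site at 27.1 kb is covered in both LSK libraries, and that at 56.4 kb is at 0 in d56kb LMPP and d56kb MDP.

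CEBPA, a factor of granulocyte and monocyte precursors, was measured in other libraries than those that chose the sites. In Mo, 400 of the sites overlapped a CEBPA peak called in both libraries, 17.9% (16.4 to 19.6), against 8.07% (7.17 to 9.08) of the sites without LSK acetylation and 12.2% of all reproducible cDC1 IRF8 sites. The share was 17.7% at promoters and 18.1% away from them. In cDC1 only 1 site overlapped a CEBPA peak, but the 2 cDC1 CEBPA lists held 166 and 72 peaks in all against 19705 and 17827 in Mo. An IRF8 peak in 1 of the 2 Mo libraries was present at 387 sites (17.4%), so these sites were not shown to lack IRF8 in Mo. The Etv6 (85.2 kb), Ikzf1, Foxp1, Samsn1 and Trim33 sites, higher in GMP than LMPP above, each overlapped a CEBPA peak in both Mo libraries, and the Tmem156 and Uvrag sites in neither; these were looked up after their values were seen.

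Just outside the rule were 497 sites that met it except for a call in only 1 LSK library, 446 with a call in only 1 cDC1 H3K27ac library, and 551 acetylated in both LSK libraries and no cDC1 library. With 1 library of any kind left out of the rule, the number of sites ranged from 1975 to 2980.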

How the data were processed

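Chromatin immunoprecipitation sequencing of 22 libraries was used, 14 for H3K27ac, 4 for IRF8 and 4 for CEBPA; input samples entered only through the authors' calling. Per the submitters' processing notes and the file headers, reads were aligned to mm10 with Bowtie 1.1.2 and regions were called per library with HOMER 4.9. Per the file headers, H3K27ac was called in the histone style with a peak size of 500 bases and 4-fold enrichment over input, IRF8 as factor peaks with no input, and CEBPA as factor peaks against input, where each second library used the input of the first. The deposited score column is the same for every region, so the deposited positions (starts and ends in bases, of the unit kind other) carried the measurement. Total tags per library are in the file headers; 95% intervals (Wilson) reflect counting error alone.

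IRF8 peaks of the 4 libraries were merged where they overlapped by at least 1 base. Coverage within 2500 bases of each midpoint was scaled to the mean total covered length, and log2(value + 500) was fitted by group with limma 3.58.1 (trend and robust, R 4.3.3), adjusted by Benjamini-Hochberg with a threshold of 0.05, in 5 comparisons. The fit shares 1 spread over 14 libraries, including those that chose the sites. The fit was tested on simulated data. Shares were compared over libraries by exact sign flips with Python 3.11.15.

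Each site took the protein-coding gene whose start was nearest within 100000 bases, or, for the genes without one, the nearest span end (434 of 2101 sites). RefSeq starts were at hand for 79.9% of protein-coding genes and for none on chromosome 18 (76 sites), so promoter shares leave that chromosome out; a promoter is any RefSeq start, coding or not, within 1000 bases. Named sites were the 5 highest and 5 lowest past the threshold without overlap of the groups in each comparison, or where fewer than 3 passed the 3 with the smallest p, the 8 lost and 5 gained calls in IRF8KO LMPP with the most coverage, the 10 genes with the most sites, up to 5 sites called in no other library, and listed genes. The sites and lists were chosen with earlier results of these data known. Alternatives changed the overlap rule, scaling, added bases, filters, promoter distance, minimum width, the libraries fitted and each library in turn. No genome sequence was used, so sequences away from promoters are not shown.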

Additional observations from a re-analysis of the deposited data

How the results depend on the processing

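Of 266 alternative values of the main results, 183 counted as unchanged. Shares called had to stay within the SD between libraries, and counts within 1.5 times the main count. Promoter, CEBPA, Mo peak and motif shares had to stay inside the Wilson interval, which reflects counting error alone. The difference from sites without LSK acetylation had to keep its sign and a sign-flip p under 0.05, although the choice of sites fixes its direction. With the site's midpoint required inside a region, the shares called were 56.1% in WT LMPP, 80.5% in d56kb LMPP, 73.6% in d56kb GMP and 37.2% in IRF8KO LMPP, and CEBPA in Mo overlapped 14.4%. With regions of the minimum width left out they were 56.9, 81.4, 73.8 and 36.2%, and gained calls in IRF8KO LMPP fell to 5. With sites that touched any Mo IRF8 peak left out, d56kb GMP gave 73.8%, CEBPA 15.5% and single-library Mo peaks 0 by construction. Promoters within 500 or 2500 bases gave 20.8 and 37.4%, and the GAAA repeat or the composite element alone 8.06 and 4.44%.

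With only the 4 libraries compared, limma called 0 sites in IRF8KO minus WT LMPP, 0 in d56kb minus WT LMPP and 0 in d56kb MDP minus GMP. At an unadjusted p under 0.05 were 259 of 1787, 387 of 2049 and 325 of 2020 sites. Over all IRF8 sites fitted there these were 1153 of 7301, 1928 of 9536 and 2726 of 11950. Fits limited in the same way called 378 sites in d56kb GMP minus LMPP and 283 in MDP minus LMPP, against 266 and 245 in the main fit. The cause was not tested. The d56kb minus WT LMPP count of 68 became 153 without scaling, 34 with 2000 added bases, 40 without a filter and 172 without regions of the minimum width. Over all fitted sites the count of 397 became 653, 201, 217 and 839 in the same order. The MDP minus GMP count of 78 became 40 with coverage in at least 6 libraries, and over all fitted sites 1138 became 188. The cause was not tested. Replicate numbers do not pair the samples (correlations of same-numbered deviations -0.0542 to 0.0491), and a replicate block gave 130, 53, 246, 214 and 66 calls in the 5 comparisons.

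With 1 library left out the ranges were 37.7 to 45.1% for the share called in IRF8KO LMPP, 53.1 to 62.5% in WT LMPP, 74.8 to 84.2% in d56kb LMPP, 69.8 to 77.9% in d56kb GMP, 72.9 to 81.7% in d56kb MDP, 56.1 to 65.3 points for the difference from sites without LSK acetylation, 26.2 to 32.9% at promoters, 16.4 to 23.1% for CEBPA and 0 to 17.4% for single-library Mo peaks. Lost and gained calls ranged from 145 to 323 and 10 to 69 in IRF8KO LMPP, and 3 to 25 and 202 to 427 in d56kb LMPP. Fitted calls ranged from 150 to 302, 55 to 102, 148 to 191, 138 to 189 and 35 to 76, in the order of the block above. Where a group was left with 1 library, that library was taken to vary like the other groups.

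Over 48 differences of named sites (42 distinct sites) and 20 settings, 545 of 672 values kept their direction and side of the threshold, 126 no longer passed (30 of them with only the 4 libraries compared), and 1 changed from -1.31 to 0.00: Trim5 in d56kb minus WT LMPP without regions of minimum width. The IRF8KO LMPP libraries had the fewest tags, 1.26 and 1.47 M.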
